A study of Mus musculus with 2 samples.

Results

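The genes described here are the matrix metalloproteases (Mmp), their tissue inhibitors (Timp), the ADAM proteases (Adam), the secreted ADAMTS proteases (Adamts) and the ADAMTS-like proteins (Adamtsl), in mouse osteoblasts treated with the Src inhibitor PP1 or with its vehicle. They were chosen by symbol alone, as every probe set of the array annotated to exactly 1 gene whose name is 1 of these 5 prefixes followed by a number. This gave 124 probe sets for 70 genes, out of 34945 probe sets with 1 gene and 18193 genes in all. A probe set is a group of short probes against 1 transcript.

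The study profiled bone-forming cells, primary osteoblasts taken from the calvaria (skull vault) of CD1 mice aged 7 days. Every culture was grown with 10% serum, kept for 24 h in serum-free medium with 0.25% albumin, and then treated for 24 h. The DMSO group received the vehicle and the PP1 group received 2 µM PP1, which inhibits c-Src and related tyrosine kinases. Each group is 1 Affymetrix array, so no value below has a replicate or a test, and every difference describes these 2 arrays only. The number of animals behind each culture is not given in the labels.

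Metalloproteases cut the matrix and the surface proteins of cells. Secreted MMPs degrade collagens and other matrix proteins, membrane-type MMPs do so at the cell surface and can activate secreted MMPs, and TIMPs block their active site. ADAMs are membrane proteins that shed growth factors and receptors, ADAMTS proteases cleave proteoglycans and procollagens, and ADAMTSL proteins resemble ADAMTS without the protease domain. In bone, Mmp13 and Mmp14 are known for their part in collagen turnover.

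The deposited signals of the PP1 array were scaled up by a factor of 1.68, which equalised the arrays' means over probe sets once 2% had been trimmed at each end. Signals under 31.7, the median of all probe sets on both arrays, were raised to that floor. A log2 ratio is PP1 minus DMSO on these scaled signals, and where 1 array was under the floor it is a lower bound on the size of the difference. Each gene is given by its brightest probe set, and counts as measured where that probe set passed the floor on 1 array or both. Directions are relative to the bulk of genes. Without scaling, the median over all measured genes was -0.70. A difference in signal cannot tell fewer cells of a type from less RNA per cell.

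Of the 70 genes, 45 were measured and 25 were under the floor on both arrays by that probe set. Among the measured genes were 14 of 18 Mmp, 3 of 4 Timp, 13 of 28 Adam, 11 of 15 Adamts and 4 of 5 Adamtsl genes. The 15 Adam genes under the floor included Adam2, Adam3, Adam7, Adam18 and Adam24 to Adam26a, which are known chiefly from the testis and epididymis. Also under the floor were Mmp1a, Mmp1b, Mmp20 (the enamel protease), Mmp24, Adamts3, Adamts18, Adamts19, Adamts20, Adamtsl2 and Timp4. For Timp4, a second probe set was above the floor on the PP1 array alone, with a signal of 40.8 against 7.52. Of the 45 measured genes, 6 were above the floor on only 1 array.

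At the scale of the whole group, PP1 gave a signal at least 2-fold higher for 2 of the 45 measured genes (4.44%) and at least 2-fold lower for 2 others (4.44%). The higher ones were Adamts9 and Adam23, and the lower ones were Adamts12 and Adamtsl3. Over all 12111 measured genes, 2.97% were at least 2-fold higher and 1.55% at least 2-fold lower, so these counts of 2 lie near the background. On the values as deposited the counts were 0 higher and 12 lower, against 23.4% of all genes lower there, and after scaling to the bacterial hybridization controls they were also 0 and 12, against 30.6% of all genes lower. The 12 are 27.3% of the 44 genes measured in each of those settings, which is near the background. Taking each gene's dimmest probe set above the floor, a choice made after seeing the data, moved the higher count from 2 to 7 (15.6%, against 5.0% of all genes) and left the lower count at 2. At 1.5-fold, 10 of the 45 were higher (22.2%, against 10.6% of all genes) and 7 were lower (15.6%, against 7.37%). Mmp8, which was above the floor only with PP1, is 1 of those 10. Of the 45, 28 were above 0 (62.2%, against 51.0% of all measured genes) and 17 below (49.0% of all). A different set of 28 genes lay within 1.5-fold, some of them only by a bound, as did 82.0% of all genes. The median log2 ratio of the 45 was 0.22, against 0.01 for all measured genes.

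**Figure D1:**
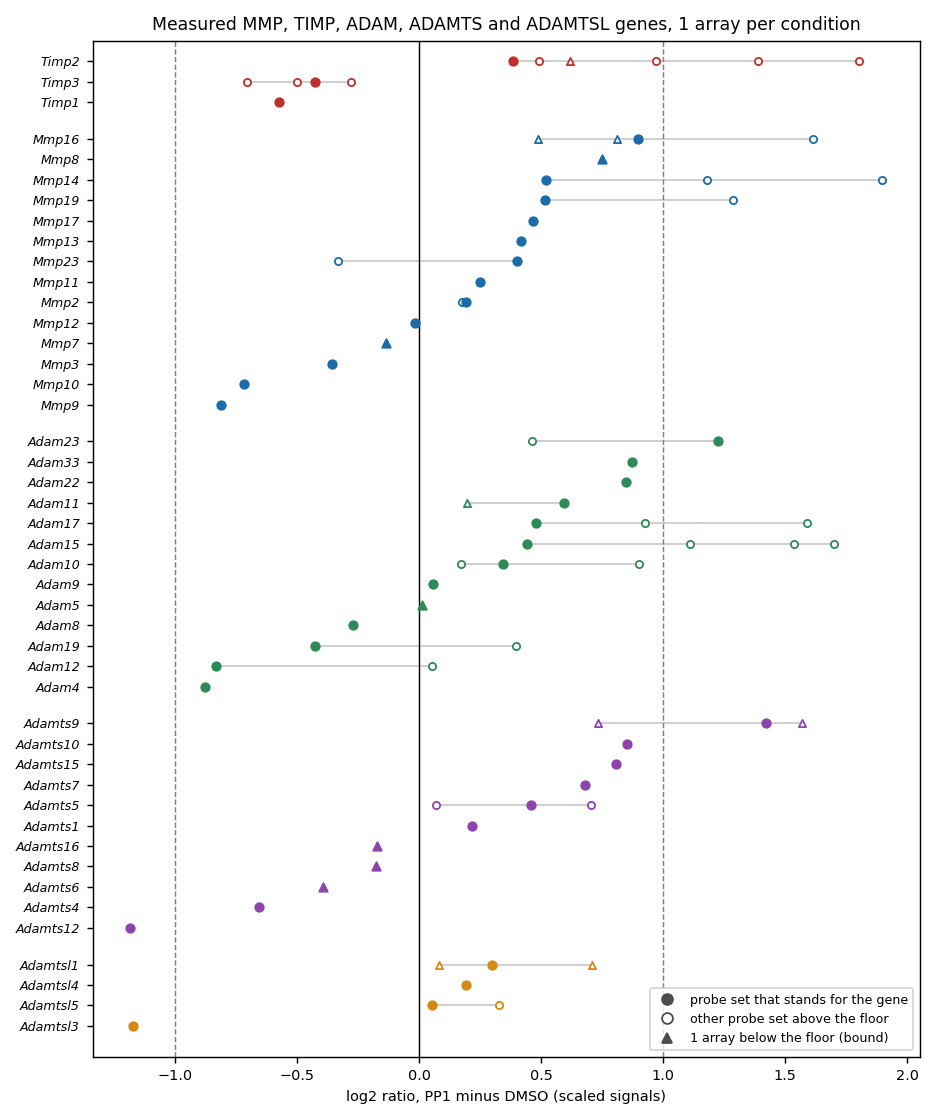
Log2 ratio, PP1 minus DMSO (x axis), of every probe set above the floor on at least 1 array, for the 45 measured genes (y axis) grouped by subfamily; filled symbols stand for the gene, open symbols are its other probe sets, triangles are bounds and dashed lines mark 2-fold. Adamts9 and Adam23 lie beyond 2-fold on the right, Adamts12 and Adamtsl3 on the left, and the probe sets of Timp2, Mmp14, Adam15 and Adam17 spread widely to the right of 0.

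The inhibitors went in different directions. Timp1, a secreted inhibitor of most MMPs, gave a signal of 5605 with DMSO and 3763 with PP1, which is 1.49-fold lower by its only probe set. Timp3, which binds to the matrix and also inhibits several ADAM and ADAMTS proteases, went from 4722 to 3518, or 1.34-fold lower. All 4 probe sets of Timp3 were lower, with log2 ratios from -0.71 to -0.28. Timp2, which inhibits MMPs and also takes part in the activation of pro-Mmp2 by Mmp14, went the other way, from 6261 to 8163, or 1.30-fold higher. Its 6 probe sets were all higher, with log2 ratios from 0.38 to 1.80, and the probe set that stands for the gene gave the smallest of them. At its dimmest probe set above the floor on both arrays, Timp2 had signals of 384 and 1338. The median log2 ratio of the 3 measured inhibitors was -0.42, which is -0.43 relative to all measured genes. In the other subfamilies that relative median was 0.32 for Mmp, 0.33 for Adam, 0.21 for Adamts and 0.11 for Adamtsl. With 3 genes of which 1 was higher, the Timp median is the value of Timp3. A bulk measure of transcripts gives no activity of the proteases or their inhibitors.

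Among the collagenases and gelatinases, Mmp13, the main interstitial collagenase of mouse bone, was 1.34-fold higher, with a signal of 3439 for DMSO and 4593 for PP1. Mmp2 (gelatinase A) went from 2554 to 2918, or 1.14-fold higher, and its 2 probe sets gave 0.17 and 0.19. Mmp9 (gelatinase B), known from osteoclasts and macrophages, went from 95.5 to 54.5, or 1.75-fold lower, and its second probe set was under the floor on both arrays. Mmp8, the neutrophil collagenase, was under the floor with DMSO and at 53.3 with PP1, which is at least 1.68-fold higher. The collagenases and gelatinases therefore held values on both sides of 0, with Mmp9 the lower one of the 4 measured.

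Of the 5 stromelysins and related enzymes measured, Mmp3 and Mmp10 lay below the median of all genes under every setting that measured them. Mmp7 and Mmp12 were also below 0. Mmp12 turned above that median under 2 settings. Mmp7 did so under 2 others, but only as a bound, and with no floor it was at -1.86. Mmp3 (stromelysin 1) had a signal of 1055 with DMSO and 823 with PP1, or 1.28-fold lower. Mmp10 (stromelysin 2) went from 62.0 to 37.7, or 1.64-fold lower, from a signal close to the floor. Mmp12, the macrophage elastase, differed little, with 585 and 579. Mmp7 (matrilysin) was at 34.8 with DMSO and under the floor with PP1, so that its ratio of -0.13 is a bound. Mmp11 (stromelysin 3) stood against them at 1.19-fold higher, with 178 and 211. Of these 5 genes, Mmp10 alone was past 1.5-fold with the floor in place, and the bound for Mmp7 cannot show that it was within 1.5-fold.

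Markers of other cells give a setting for the proteases known from myeloid cells. Of 14 macrophage markers, 13 were measured, 8 above 0 (61.5%, against 51.0% of all genes) and 5 below, with a median log2 ratio of 0.10. Their summed signals of 15681 with DMSO and 18237 with PP1 are mostly Lyz1 and Lyz2, and single markers ran from -0.76 for C1qb and -0.56 for C1qa to 1.11 for Mrc1. Of 8 osteoclast markers, 4 were measured, with summed signals of 1561 and 1478 that are mostly Ctsk (1233 and 1117). Acp5 went from 109 to 166, and Calcr, Dcstamp, Ocstamp and Itgb3 were under the floor. Of 8 neutrophil markers, 7, including S100a8, S100a9 and Mpo, were under the floor on both arrays, and Elane was at 37.3 with PP1 only. Their part in the values of Mmp8, Mmp9, Mmp12 and Adam8 was not tested. Of 10 osteoblast markers, 5 were measured, with log2 ratios of 0.39 for Col1a1, 0.44 for Sparc, 0.37 for Alpl, -0.43 for Sp7 and -2.08 for Ibsp. Phex and Dmp1 were under the floor, and Runx2, Bglap and Spp1 had no probe set named here. Of 7 measured smooth muscle and pericyte markers, 6 were below 0, against 49.0% of all genes. At least 2-fold lower were 3 (42.9%, against 1.55% of all genes), Cnn1 among them under the floor with PP1. The median of the 7 was -0.53, and Des went the other way at 1.43 (39.4 with DMSO and 106 with PP1). The summed signals of 11314 and 8462 are mostly Acta2 (6994 and 5788), and Myh11 was under the floor. Of 8 measured fibroblast and periosteum markers, 5 were above 0 (62.5%, against 51.0% of all genes), with a median of 0.50 and summed signals of 11709 and 15048. Scara5 (965 with DMSO and 3045 with PP1) was at 1.66, Twist1 at 1.54 and Pdgfra at 0.91. Mfap5 was at -0.63, Thy1 at -0.30 and Postn at -0.12. The part of these cell types in the values of the Timp, Mmp, Adam and Adamts genes was not tested.

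The membrane-type MMPs were all above 0 in the 3 genes measured, and Mmp15 and Mmp25 had no probe set named here. Mmp14 (MT1-MMP), a cell-surface collagenase, had signals of 1991 with DMSO and 2858 with PP1 by its brightest probe set, or 1.44-fold higher. Its other probe sets went from 439 to 993 and from 206 to 769, with log2 ratios of 1.18 and 1.90, so the size but not the side depended on the probe set. Mmp16 (MT3-MMP) went from 214 to 398, or 1.86-fold higher, and all 4 of its probe sets were above 0, from 0.49 to 1.61. Mmp17 (MT4-MMP) went from 142 to 196, or 1.38-fold higher. The median log2 ratio of the 3 was 0.52, against 0.19 for the 11 other measured MMPs. Among the remaining enzymes, Mmp19 was at 0.52 (signals of 56.2 and 80.3) and at 1.28 by its other probe set. Mmp23 had log2 ratios of 0.40 and -0.33 at its brighter and dimmer probe sets, so that its direction is not settled.

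On chromosome 9, 10 protein-coding MMP genes follow one another with no other protein-coding gene between them in the RefSeq gene table. In order they are Mmp13, Mmp12, Mmp1b, Mmp3, Mmp1a, Mmp10, Mmp8, Mmp27, Mmp20 and Mmp7. Of the 10, 9 had a probe set and 6 were measured. The neighbours did not share a direction: Mmp13 was at 0.42, Mmp12 at -0.02, Mmp3 at -0.36, Mmp10 at -0.72, Mmp8 at 0.75 or more and Mmp7 at -0.13 or less.

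Genes of this run are textbook targets of AP-1, the Fos and Jun dimers that bind the 7 letters TGANTCA, so the 250 bases before each annotated start were searched for them. RefSeq windows (build GRCm38.p6) were given for 41 of the 70 genes, 46 windows in all. TGANTCA, which reads the same on both strands, occurred in 10 of these 46 windows (21.7%), against 6.75% of all 32851 windows. The genes with a match were Mmp1a, Mmp1b, Mmp3, Mmp7, Mmp10, Mmp12, Mmp13 and Mmp20 of the run, and Adam19 (in 1 of its 3 windows) and Adam25. Mmp7 and Mmp12 had 2 windows each, with a match in 1 of them. The genes of the run are related copies and not independent cases. The windows of the 4 genes of the run with a match that were above the floor on both arrays are shown because they carry the same letters with different log2 ratios. They lie at chr9:7272264-7272513 (Mmp13), chr9:7347124-7347373 (Mmp12, the second of 2 annotated starts), chr9:7445572-7445821 (Mmp3) and chr9:7502092-7502341 (Mmp10), all on the plus strand, printed 5′ to 3′ with TGANTCA in capitals.
Mmp13: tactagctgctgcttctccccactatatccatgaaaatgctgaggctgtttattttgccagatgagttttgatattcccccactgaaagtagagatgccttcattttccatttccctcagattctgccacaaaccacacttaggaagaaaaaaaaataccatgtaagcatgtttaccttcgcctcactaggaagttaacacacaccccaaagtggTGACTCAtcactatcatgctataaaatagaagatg
Mmp12: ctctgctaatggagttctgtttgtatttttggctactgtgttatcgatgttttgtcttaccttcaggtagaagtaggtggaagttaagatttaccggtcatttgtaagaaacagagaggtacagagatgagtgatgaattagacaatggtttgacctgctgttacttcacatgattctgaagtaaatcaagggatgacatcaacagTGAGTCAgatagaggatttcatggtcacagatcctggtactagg
Mmp3: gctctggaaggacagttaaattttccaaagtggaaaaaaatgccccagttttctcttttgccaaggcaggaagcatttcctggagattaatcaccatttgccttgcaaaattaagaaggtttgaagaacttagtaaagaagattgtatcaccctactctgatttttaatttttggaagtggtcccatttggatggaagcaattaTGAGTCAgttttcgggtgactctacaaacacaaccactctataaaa
Mmp10: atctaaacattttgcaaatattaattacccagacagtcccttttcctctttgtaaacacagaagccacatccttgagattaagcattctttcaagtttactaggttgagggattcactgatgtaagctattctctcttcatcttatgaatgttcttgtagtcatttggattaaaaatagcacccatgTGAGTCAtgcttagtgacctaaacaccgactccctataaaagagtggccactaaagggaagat
The match began 35 bases before the start in Mmp13, 44 in Mmp12, 46 in Mmp3 and 63 in Mmp10. A match is a string of letters and not a shown binding site. The 6 measured genes with a match (Adam19, Mmp3, Mmp7, Mmp10, Mmp12 and Mmp13) had a median log2 ratio of -0.25, and the 19 measured genes with a window and no match had a median of 0.34. The -0.25 is the midpoint of Mmp3 and of Mmp7, whose value is a bound. Adam19 and Mmp12 turned above the median of all genes under at least 1 alternative setting, and Mmp7 did so only as a bound. The letters TATAAA, searched on both strands in the same windows, gave a split of the same sign, with a median of -0.13 over 5 measured genes, of which 4 (Mmp3, Mmp7, Mmp10 and Mmp13) also held TGANTCA, and 0.30 over 20 without. They occurred in 11 of the 46 windows (23.9%), against 12.4% of all windows.

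Of 12 transcription factors listed as acting on MMP promoters, 9 were measured, 4 above 0 (44.4%, against 51.0% of all genes) and 5 below. Fosl1 (Fra-1) went from 317 to 188, or a log2 ratio of -0.75, and was the only one past 1.5-fold. That is 11.1% of the 9 lower at 1.5-fold, against 7.37% of all genes, which is near the background. Fos was at -0.38, Jun at 0.00, Junb at 0.28 and Jund at 0.32. Ets1 was at -0.48, with its 4 probe sets from -0.48 to 0.27, and Ets2 at -0.14, with -1.42 by its other probe set above the floor.

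The windows of Mmp14 and Timp2, of which all probe sets were higher with PP1, held no TGANTCA. Lower genes lacked it too, among them Adamts12 (log2 ratio -1.18), Adamtsl3 (-1.17), Timp1 (-0.58) and Timp3 (-0.42). The absence of these letters therefore did not go with 1 direction. The windows of Mmp14 and Timp2 are shown, at chr14:54431348-54431597 on the plus strand and chr11:118355412-118355661 on the minus strand, printed 5′ to 3′ on the strand of the gene. Capitals mark GGGCGG, the GC box, which was searched on both strands and did not overlap TGANTCA in any window shown.
Mmp14: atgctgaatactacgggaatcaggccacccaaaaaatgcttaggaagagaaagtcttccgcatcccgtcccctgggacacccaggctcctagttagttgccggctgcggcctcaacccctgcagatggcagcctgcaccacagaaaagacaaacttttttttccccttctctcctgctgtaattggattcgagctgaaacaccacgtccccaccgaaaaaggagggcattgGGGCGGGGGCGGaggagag
Timp2: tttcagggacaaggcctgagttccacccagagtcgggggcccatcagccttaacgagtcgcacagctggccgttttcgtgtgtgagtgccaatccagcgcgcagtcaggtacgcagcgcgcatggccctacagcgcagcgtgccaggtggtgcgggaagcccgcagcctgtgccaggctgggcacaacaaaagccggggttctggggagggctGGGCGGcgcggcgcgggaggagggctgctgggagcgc
GGGCGG or its complement occurred in 19 of the 46 windows (41.3%), against 32.7% of all windows. The 14 measured genes with it had a median log2 ratio of 0.23, against -0.02 for the 11 without, and included Timp1 and Timp3, which were lower, as well as Timp2 and Mmp14.

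Among the ADAMs with an active protease site, the shedding enzymes Adam10, Adam15 and Adam17 were above 0 by every probe set above the floor. Adam17 (TACE), which releases TNF and several EGF receptor ligands, went from 610.4 to 851, or 1.39-fold higher, and its other probe sets gave 0.93 and 1.59. Adam10, which cleaves Notch receptors among others, went from 1832 to 2323, or 1.27-fold higher, with 0.17 and 0.90 by its other probe sets above the floor. Adam15 went from 593 to 807, or 1.36-fold higher, and 3 other probe sets gave log2 ratios of 1.11 to 1.70. Adam9 was the least different, with 3278 and 3405. Adam33 went from 63.9 to 117, or 1.83-fold higher, from a dim signal.

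Others of the active ADAMs were lower by their brighter probe set. Adam12, known from muscle and bone formation, went from 1132 to 635, or 1.78-fold lower, but its second probe set gave 0.05 with signals of 334 and 346. Adam19 was likewise split, at -0.43 (signals of 274 and 204) and 0.40. Adam8, a protease of myeloid cells, was 1.21-fold lower, with 761 and 630.1, by its only probe set. Of the 8 active ADAMs measured, 5 were above 0 and 3 below, with a median of 0.20.

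ADAMs without an active protease site act in cell adhesion, and Adam11, Adam22 and Adam23 are known as neuronal surface proteins. They were the only measured genes of the 8 listed here as without the site, and all 3 were above 0. Adam23 had signals of 119.8 with DMSO and 280.2 with PP1, or 2.34-fold higher, and its second probe set went from 115 to 158, a log2 ratio of 0.46. Adam22 went from 70.0 to 126, or 1.80-fold higher, and Adam11 from 34.1 to 51.5, near the floor. The median log2 ratio of the 3 was 0.85, from dim signals. Adam4, a gene known from the testis, went from 78.2 to 42.6, or 1.84-fold lower, by 1 probe set.

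The ADAMTS proteases held the largest difference in each direction among the values that stand for the 45 genes. Adamts9, a protease of versican and aggrecan, had a signal of 131 with DMSO and 352 with PP1, or 2.68-fold higher. Its other probe sets were under the floor with DMSO and at 94.0 and 52.7 with PP1, so that they were at least 2.96-fold and 1.66-fold higher. Adamts12, known to cleave cartilage oligomeric matrix protein, went from 373 to 164, or 2.27-fold lower, and its second probe set was under the floor on both arrays. Adamts5, the main aggrecanase of mouse cartilage, went from 2122 to 2919, or 1.38-fold higher, with 0.07 and 0.71 by its other probe sets above the floor. Adamts4, another aggrecanase, went from 275 to 175, or 1.58-fold lower. Adamts1 was close to the bulk, with 1203 and 1398. Proteases of 1 substrate class thus lay on both sides: of the 6 proteoglycan-cleaving ADAMTS genes measured, 4 were above 0 and 2 below, with a median of 0.34.

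Dimmer ADAMTS genes were Adamts10 (log2 ratio 0.85), Adamts15 (0.81) and Adamts7 (0.68), each with a DMSO signal of 80.0 or less. Adamts10 is known for its part with fibrillin fibres. Adamts6, Adamts8 and Adamts16 were above the floor only with DMSO, between 35.8 and 41.7, so their ratios of -0.39, -0.18 and -0.17 are bounds and say little. Of the procollagen N-propeptidases, Adamts3 was under the floor, and Adamts2 and Adamts14 had no probe set named here.

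In the ADAMTS-like group, Adamtsl3 (punctin 2) went from 392 to 174, or 2.25-fold lower, by its only probe set. The other 3 measured were close to the bulk: Adamtsl1 at 0.30, Adamtsl4, a fibrillin-associated protein, at 0.19, and Adamtsl5 at 0.05. Of the 4 genes past 2-fold, Adam23 and Adamts9 had other probe sets above the floor, all on the same side, while Adamts12 and Adamtsl3 had none.

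**Figure D2:**
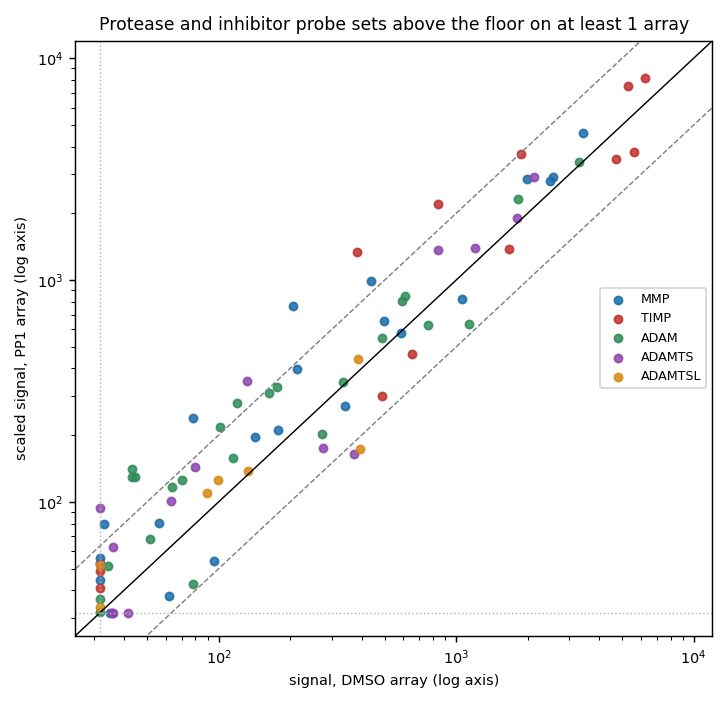
Signal on the DMSO array (x axis, log scale) against the scaled signal on the PP1 array (y axis, log scale) for the 80 probe sets above the floor on at least 1 array, with the line of equality, dashed lines at 2-fold and dotted lines at the floor of 31.7. Of these probe sets, 13 lie at or above the upper 2-fold line and 2 at or below the lower one.

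Counted by probe set, 80 of the 124 were above the floor on at least 1 array, 13 of them at least 2-fold higher and 2 at least 2-fold lower. Over all 21219 such probe sets with 1 gene, 4.33% were at least 2-fold higher and 1.48% at least 2-fold lower. The 13 belong to 8 genes, Adam15, Adam17, Adam23, Adamts9, Mmp14, Mmp16, Mmp19 and Timp2, so they are not independent. In 6 of those 8 genes, all but Adam23 and Adamts9, the probe set that stands for the gene was not among the 13.

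Within a gene, the dimmer probe sets tended to give the higher ratio. Of 15 genes in which several probe sets passed the floor on both arrays, 11 had all of them above 0 (73.3%, against 28.0% of 4745 such genes) and 1, Timp3, had all below 0 (6.67%, against 21.5%). In Adam12, Adam19 and Mmp23 they went both ways. In 11 of the 15 genes (73.3%) the dimmest probe set gave a higher ratio than the brightest, against 63.1% of all such genes. The median of that difference was 0.72 in the 15 genes and 0.17 over all 4745. The step was largest in Timp2, where it was 1.42, and in Mmp14, where it was 1.38. Adam23, Mmp23, Timp3 and, by 0.02, Mmp2 went the other way. The SD between probe sets of a gene was 0.50 in these 15 genes and 0.41 over all. The array's controls for intact RNA compare probe sets at the 3′ and 5′ ends of a transcript. On the log2 scale this ratio was lower with PP1 for Gapdh (0.19 against 0.70) and Pcx (1.46 against 1.80), and higher for Actb (0.69 against 0.55). For Tfrc it was higher too (1.90 against 1.12), but its 5′ signals of 12.5 and 17.1 were under the floor. The part of RNA quality in these differences between probe sets was not tested.

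**Figure D3:**
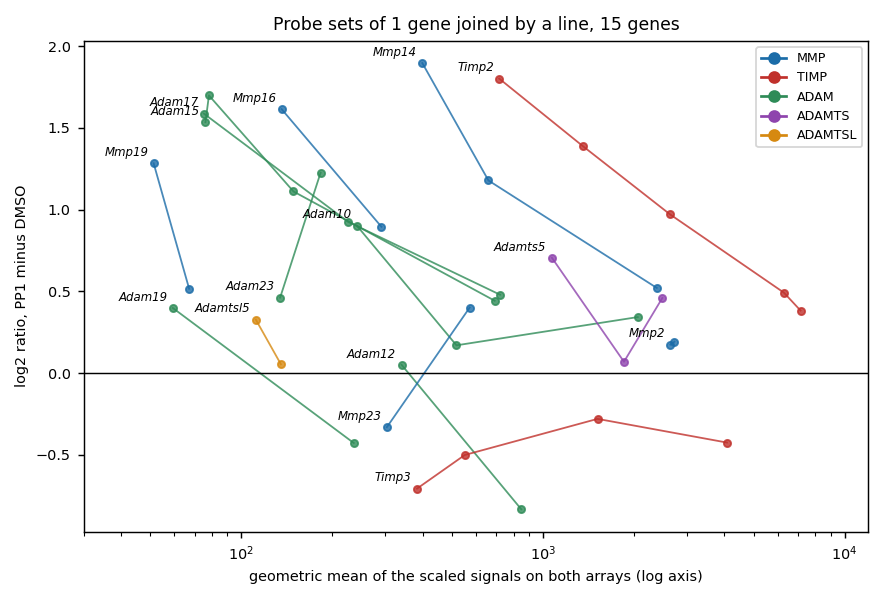
Log2 ratio, PP1 minus DMSO (y axis), against the geometric mean signal over both arrays (x axis, log scale) for probe sets that passed the floor on each array, joined by a line within each of 15 genes and coloured by subfamily. The lines of Timp2, Mmp14, Adam17 and Adam15 slope downward from the dim to the bright probe set, and those of Timp3, Adam23 and Mmp23 slope upward.

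Across the processing settings tried, the median of the Mmp, Adam and Adamts genes relative to all measured genes stayed above 0 and that of the Timp genes below 0. That of the Adamtsl genes was above 0 except with the floor at the 75th percentile. The Timp median rests on 3 genes, or 4 with the median over probe sets.

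**Figure D4:**
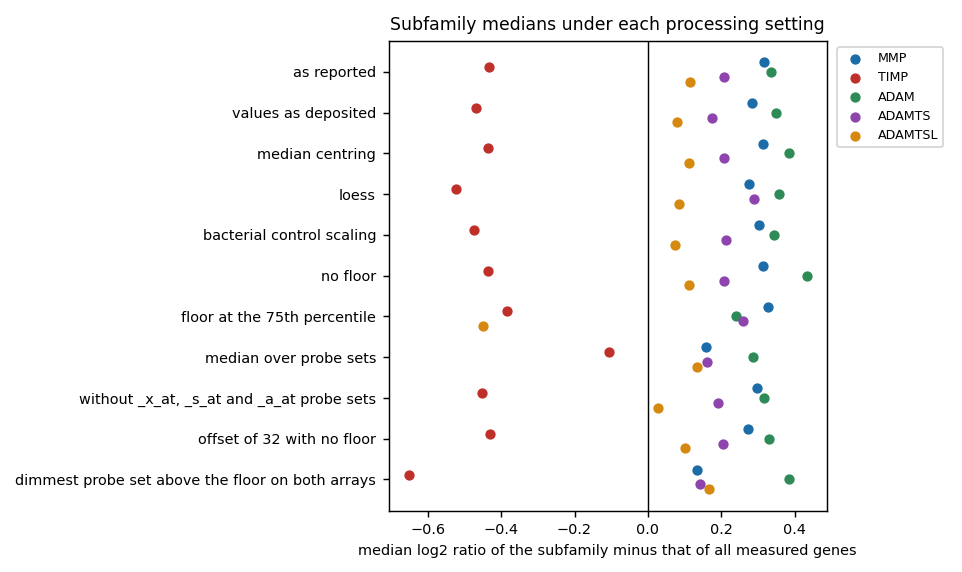
Median log2 ratio of each subfamily minus that of all measured genes (x axis) under the reported and each alternative setting (y axis). The Timp genes (red) sit between -0.65 and -0.11 and the Mmp genes (blue) between 0.13 and 0.33.

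Other genes of proteolysis around the cell were read from a list of 34, of which 26 were measured, 12 above 0 and 14 below, with a median of -0.11. Past 1.5-fold, 3 were higher (11.5%, against 10.6% of all genes) and 3 lower (11.5%, against 7.37%), which is near the background. The higher ones were Bsg (basigin, an inducer of MMPs, 1381 against 2309), Pcsk6, a proprotein convertase (200.2 against 324), and Tspan17 (310.3 against 489), a tetraspanin that escorts Adam10. The lower ones were the urokinase receptor Plaur (282 against 117) and both iRhoms, Rhbdf1 (1106 against 584) and Rhbdf2 (52.9 against 32.8), which carry Adam17 to the cell surface. Rhbdf2 was dim, with its PP1 signal close to the floor of 31.7, and each iRhom had 1 probe set. The membrane inhibitor Reck was at 0.36 and the convertase Furin, which activates membrane-type MMPs and ADAMs, at -0.30.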

How the data were processed

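Expression was measured with 1 Affymetrix array per condition. The deposited values are linear intensities, 1 signal per probe set, made with MAS5 per the submitters' processing notes. The MAS5 version and its target value were not stated there. Of 45101 probe sets in the table, 64 were controls. Gene names came from the annotation of the platform, and a RefSeq table (assembly GRCm38.p6) supplied current symbols. A single gene was named for 34945 probe sets, several for 932 and none here for 9160. The gene identifiers of all 70 genes described matched the table.

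Trimmed means (2% at each end, non-control probe sets) were 158 and 94.1, and the PP1 array was scaled by their ratio. Signals were set to the floor of 31.7 before log2 was taken. Probe sets of a gene were ranked by mean log2 signal before the floor. With 1 array per group no test was made, and the number of arrays limits the precision. The steps were tested on simulated data. All measured genes of the 5 groups may be named, and of the other lists those past 1.5-fold. Some others of those lists, such as Fos, Jun, Reck and Furin, were named after their values were seen. Members and lists were chosen with earlier results of these data known. Alternatives were other scalings, floors, an offset, other choices of probe set and other fold thresholds. Python 3.11.15, pandas 2.3.3 and statsmodels 0.14.6 were used.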

Additional observations from a re-analysis of the deposited data

How the results depend on the processing

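The counts of 2 genes at least 2-fold higher and 2 lower with PP1 depended on scale. As deposited they were 0 and 12, and with bacterial control scaling 0 and 12. Those settings moved the median over all genes to -0.70 and -0.79, and relative to it the counts were 2 and 2 in each. A floor at the 75th percentile left 1 higher gene, Adamts9, and no floor gave 4 lower genes, with Adamts16 and Mmp7 added from signals near or under the floor. With a threshold of 1.5-fold the counts were 10 and 7, and with 3-fold 0 and 0. Taking the dimmest probe set above the floor on both arrays, an alternative chosen after seeing the data, gave 7 higher genes (15.6%, against 5.0% of all genes), among them Timp2, Mmp14, Adam15 and Adam17 but not Adam23, and lowered the relative Mmp median from 0.32 to 0.13. With the median over probe sets, the relative Mmp median was 0.16 and that of Timp -0.11, the latter with Timp4 added. The Adamtsl median was -0.45 with the floor at the 75th percentile, which left fewer genes. In the other settings run, these counts stayed within 1.5 times. The relative medians moved by less than the SD between probe sets of a gene (0.41) divided by the square root of the number of genes. That yardstick is not an error of the medians, which 1 array per group cannot give. Signs were read after each setting's ratios were shifted to the reported median of all genes, 0.009. On that scale, 35 of the 45 genes kept their sign under every alternative that measured them. Adam5, Adam9, Adam19, Adamts6, Adamts8, Adamts16, Adamtsl5, Mmp7, Mmp12 and Mmp23 did not under at least 1. Adamts6 changed only to 0.002, which is still below that median. The changes of Adam5, Adamts6, Adamts8, Adamts16 and Mmp7 were bounds. With no floor these genes were at 0.97, -0.79, -0.23, -2.35 and -1.86, in that order. No paired analysis was possible because each group is 1 array, and no replicate could be left out.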

Other observations

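Of 14 matrix proteins listed as substrates of these proteases, 12 were measured, 8 above 0 and 4 below. Past 1.5-fold, 1 was higher (8.33%, against 10.6% of all genes) and 2 were lower (16.7%, against 7.37%). Elastin (Eln) had a log2 ratio of -1.68 at its brighter probe set. Its dimmer probe set was under the floor with PP1, so that its ratio of -0.07 is a bound. Aggrecan (Acan), a substrate of Adamts4 and Adamts5 and also a cartilage marker, went from a signal of 167 to 73.4, a log2 ratio of -1.18. Decorin (Dcn) went from 2939 to 4647, a log2 ratio of 0.66, and versican (Vcan), a substrate of Adamts9, was at 0.11, with 0.86 the highest of its 3 probe sets above the floor. The 7 measured cartilage markers, Acan among them, had a median of -0.19 and summed signals of 6133 and 5309, and their part in the value of Acan was not tested.

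A further 5 probe sets name a gene of these groups together with another gene and entered no result. The probe set shared by Adam6a and Adam6b had a signal of 14.2 with DMSO and 38.7 with PP1. Those shared by Adam1a and Mapkapk5 lay between 5.47 and 39.1 with DMSO and between 4.55 and 40.1 with PP1.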
